A study of Caenorhabditis elegans with 24 samples.

Results

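RNA pulled down with a dsRNA-specific antibody was compared, gene by gene, with the input RNA of wild-type C. elegans. The animals were young adults of the N2-CGC B strain, grown on plates at 15°C. The labels name no transgene and no treatment. 3 J2-IP libraries had been made from 3 biologically independent lysates. They were set against 1 wild-type input library, so the input had no replicate and its own error is unknown. The second input library in these data came from young adults of the deletion strain tdp-1(ok803) and was used only as a check on the single wild-type input. Of 8783 genes in each table, 8600 could be joined by name, and 6639 of these had a wild-type input value of 10 or more and were kept. All values are normalised read counts, rounded to whole numbers by the authors, and the number of reads behind them is unknown. A gene was called enriched when each of the 3 J2-IP values was at least 1.5 times the input value, and depleted when the input was at least 1.5 times each J2-IP value.

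Double-stranded RNA forms when a transcript folds back on an inverted repeat, giving a hairpin, or when it pairs with an antisense transcript. The J2 monoclonal antibody binds long duplexes whatever their sequence, and short, interrupted helices such as those of transfer RNA bind it poorly. In worm nuclei long duplexes are deaminated from adenosine to inosine by the ADAR enzyme ADR-2 with its partner ADR-1, and duplexes are cut by Dicer (DCR-1) at the start of RNA interference. The extract was neither crosslinked nor digested with nuclease before the pulldown, so a whole transcript could be recovered through a duplex anywhere along it, or through a partner paired to it. In whole-animal RNA, fewer cells of a type and less RNA per cell cannot be told apart.

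The J2-IP libraries held similar sums over the kept genes, and most genes had close values in all 3. The SD of the log2 ratio to input over the 3 libraries had a median of 0.11 and a 90th percentile of 0.25. The 2 input libraries differed by a shared offset, with a median log2 ratio of tdp-1(ok803) to wild type of −0.23, and by gene. The log2 ratio of the inputs lay 0.19 from its own median in the median gene and 0.70 at the 90th percentile. For pairs of J2-IP replicates the same measure was 0.09 to 0.13 in the median gene and 0.27 to 0.37 at the 90th percentile. The inputs also differ in genotype, which the J2-IP replicates do not. J2-IP replicate 2 stood apart for a small set of genes. Each library was compared with the mean log2(value + 1) of the other 2, for genes where those 2 were within 2-fold. In replicate 2, 27 genes were more than 2-fold above that mean and 26 more than 2-fold below. Replicate 1 had 1 and 0 such genes and replicate 3 had 0 and 0. The higher genes in replicate 2 included 9 snRNA genes and 4 major sperm protein genes, and 22 protein-coding genes were among the lower ones. For acy-1, an adenylate cyclase gene, the J2-IP values were 829, 18 and 950 against an input of 11. For C04F12.7 they were 1091, 17 and 1475 against an input of 17. In the 3 J2-IP libraries of tdp-1(ok803), replicate 2 departed likewise for some of these genes. The values there were 769, 15 and 3292 for acy-1 and 2390, 17 and 5479 for C04F12.7. Other genes did not share this, such as F53G12.17 (84, 79 and 93 there, and 110, 44 and 111 in wild type). The cause was not tested. Values from wild-type replicate 2 are given beside the genes it affected. Of the cell type markers, all 3 body muscle genes, all 5 germline genes, all 6 oocyte genes and 5 of the 6 intestinal genes were present among the kept genes. None of the 5 sperm markers was, and 3 of the 5 neuronal, 1 of the 3 hypodermal and 1 of the 2 pharyngeal markers were.

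**Figure D1:**
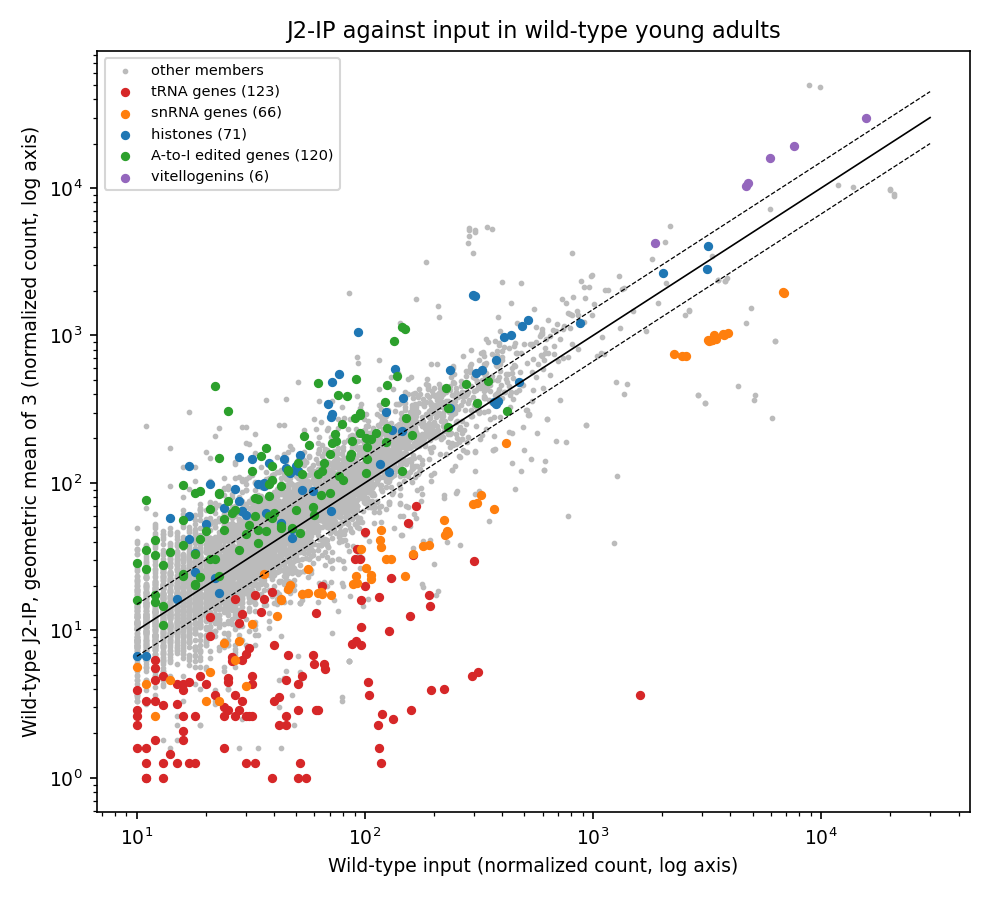
Mean J2-IP value of each gene (y axis, normalised read counts, log scale) against its wild-type input value (x axis, log scale), for the genes with input of 10 or more and no 0 among the J2-IP values. Enriched genes (1413) lie above the diagonal at every input level and depleted genes (974) below it, and the lowest points are tRNA genes and genes that overlap them.

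The pulldown gave a broad distribution around input rather than a small set of selected RNAs. The median log2 ratio was 0.16 over all 6639 genes, and the median fold over input was 1.16, 1.07 and 1.14 in replicates 1 to 3. In all 1413 genes were enriched, or 21.3% of those tested, and 974 were depleted, or 14.7%. Enriched genes made up 59.2% of the calls. When each replicate was divided by its own median ratio, enriched genes numbered 1041 and depleted genes 1218, and the enriched share of the calls was 46.1%. Where the zero point lies thus depends on a scaling between the 2 tables that is not stated. limma, with the 4 libraries rescaled to each other and the lone input assumed to vary like the J2-IP libraries, put 2062 genes (31.1%) above and 2027 genes (30.5%) below the typical gene at an adjusted p under 0.05. The fold calls lay almost wholly within these (1400 of 1413 and 972 of 974), but both use the same 4 libraries and neither measures the error of the input. Against the tdp-1(ok803) input, 1365 of the enriched genes (96.6%) were called again, but only 702 of the depleted genes (72.1%), and 5 depleted genes were called enriched. The median log2 ratio of all genes over that second input was 0.43, and 2393 of the 6639 genes were enriched over it. This offset makes enriched calls easier and depleted calls harder to repeat, so the 2 shares cannot be compared. A repeated enriched call, here and in the classes below, is therefore a weak check.

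Transcripts that carry A-to-I editing were the first group examined, because inosine is left where ADR-2 has acted on a duplex. The edited genes came from the authors' list of 204 edited regions in 188 genes, compiled from other RNA-seq libraries of L4 larvae, and 120 of these genes were kept here. Of the 120, 78 were enriched (65.0%, against 21.3% of all genes) and 0 were depleted (against 14.7%). Their median log2 ratio was 1.09, against 0.16 for all genes. All 78 were enriched over the tdp-1(ok803) input as well, beside 96.6% of all enriched genes. By limma 89 of the 120 lay above the typical gene and 3 below it.

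The position of the editing within the gene went with the size of the enrichment. Of 32 genes edited only in a UTR, 26 were enriched, with a median log2 ratio of 1.31. Of 76 genes edited only in introns, 41 were enriched, with a median of 0.81. Of 11 genes edited in both, 10 were enriched, with a median of 1.95. The median also differed with the number of potentially edited positions in a gene's region with the most of them. The list gives this number for well expressed regions. With under 50 positions 13 of 18 genes were enriched and the median log2 ratio was 0.93, with 50 to 149 positions 30 of 43 were, with a median of 1.24, and with 150 or more 25 of 29 were, with a median of 1.54. For a further 30 genes the list gives no number of positions, and 10 of these were enriched, with a median of 0.44.

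A hairpin noncoding RNA had the highest ratio of the edited genes, and messenger RNAs edited in an intron or a UTR followed. rncs-1, a noncoding RNA known to fold into a long hairpin that binds Dicer, had J2-IP values of 394, 447 and 522 against an input of 22. Every J2-IP value was far above the input, for a 20.5-fold enrichment (log2 ratio 4.36 ± 0.20, SD, n = 3, limma adjusted p = 6.2e-05). Its edited region lies on chromosome X at 1011575 to 1012208 (build WS220), covers the noncoding RNA itself and holds 147 potentially edited positions. Numbers of positions below are likewise of potentially edited ones. lem-2, which encodes an inner nuclear membrane protein of the LEM family, is edited in its 3′ UTR (chromosome II, 14065955 to 14068128, WS220, 101 positions) and in an intron (14064764 to 14065370, 112 positions). Its J2-IP values were 897, 841 and 1042 against an input of 134, a 6.89-fold enrichment (log2 ratio 2.78 ± 0.16, SD, n = 3, limma adjusted p = 9.4e-05). The second input, 129, hardly differed from the first for this gene.

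Other edited messenger RNAs covered a wide range. Y37E3.10, listed among the translation factors and edited in its 3′ UTR and in 2 introns, had values of 1083, 1039 and 1333 against 145 (7.89-fold). F54D11.2, edited in its 3′ UTR on chromosome V between 4627688 and 4628315 (WS220, 39 positions), had 1051, 1027 and 1278 against 149 (7.47-fold). Y92H12BL.1 had 444, 484 and 505 against 62 (7.69-fold). In these 3 genes no J2-IP value came near the input. Among genes edited in introns, Y54E10BR.2 had 292, 270 and 371 against 25 (12.3-fold), and mdt-17, a Mediator subunit gene, had 482, 479 and 566 against 91 (5.58-fold). crh-1, the worm CREB transcription factor gene, had 375, 370 and 429 against 83 (4.70-fold).

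Some edited genes of the nervous system and of the extracellular matrix were enriched too, as was daf-16. unc-34, the worm Enabled homologue that acts in axon guidance, is edited in 2 introns on chromosome V (987687 to 988732 with 120 positions, and 991641 to 992834 with 125, WS220), and had J2-IP values of 148, 145 and 166 against 35 (4.36-fold). rpm-1, a ubiquitin ligase gene of the presynapse, is edited in an intron (chromosome V, 8809520 to 8811011, WS220, 328 positions) and had 213, 219 and 216 against 74 (2.92-fold). lam-2, the laminin gamma chain gene, is edited in its 3′ UTR (chromosome X, 7144251 to 7144788, WS220, 57 positions) and had 458, 429 and 506 against 125 (3.71-fold). daf-16, the FOXO factor of insulin signalling, reached 1.87-fold. In each of these genes all 3 J2-IP values lay above both inputs. In contrast acr-18, listed among the ligand-gated ion channels and edited in an intron (431 positions), was not called, with a log2 ratio of 0.60.

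Editing was not always accompanied by enrichment. dct-16, the edited gene with the highest input, had J2-IP values of 303, 324 and 299 against 419, all below the wild-type input but all above the second input of 277. acdh-1, an acyl-CoA dehydrogenase gene with editing in a UTR, reached 0.815, 0.795 and 0.870 times its wild-type input of 146, while all 3 values were above the second input of 70. Y37E3.17 was pulled down unevenly, with 496, 110 and 431 against 95, and replicate 2 kept it from the call. In contrast let-70, the E2 ubiquitin-conjugating enzyme gene with the highest input among UTR-edited genes, was enriched, at 1.94-fold (450, 418 and 446 against 226).

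**Figure D2:**
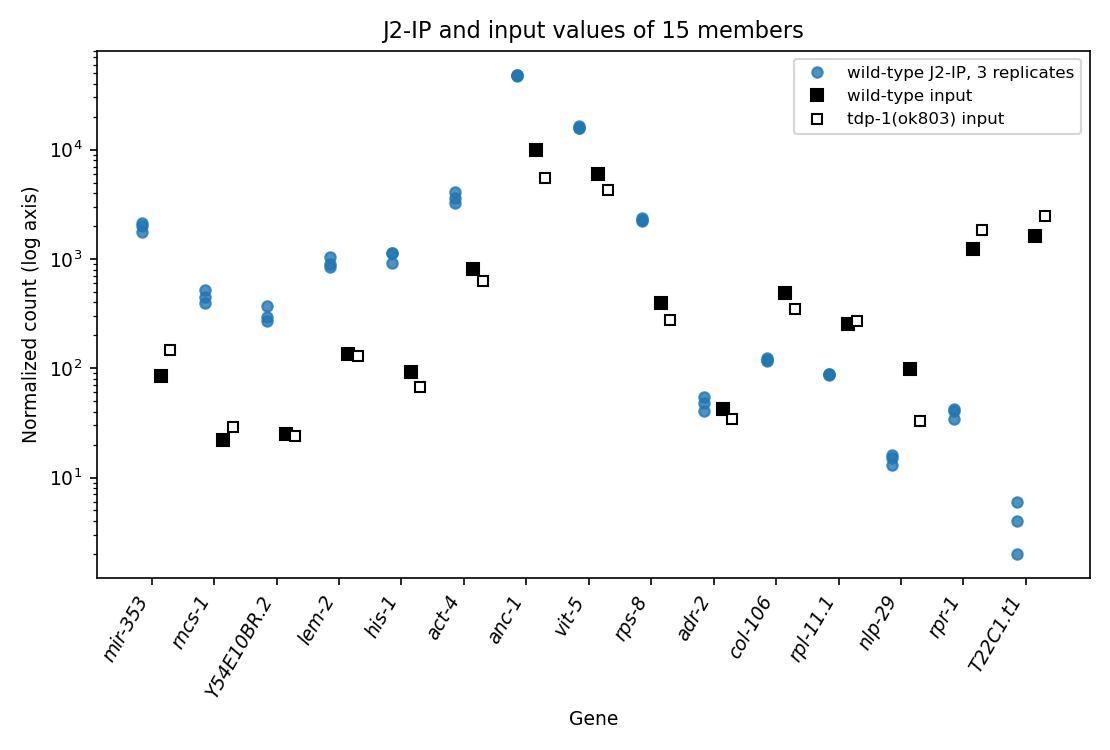
J2-IP values of the 3 wild-type replicates (dots), the wild-type input (black square) and the tdp-1(ok803) input (open square) for 15 genes, in normalised read counts on a log axis. For rncs-1, lem-2 and anc-1 the dots lie above both squares, and for rpr-1 they lie below both.

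The edited genes kept their higher share at every gene length. Edited coding genes spanning up to 4 kb were enriched in 17 of 30 cases (56.7%), against 12.9% of unedited coding genes of that span. Between 4 and 8 kb the share was 54.8% against 25.6%. Between 8 and 16 kb it was 69.7% against 40.1%. Above 16 kb the difference was smaller, with 16 of 21 edited genes enriched (76.2%) against 65.5% of the unedited ones.

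Noncoding RNAs divided sharply by kind. The tRNAs, the adaptors of translation, were all depleted: 123 of 123 tRNA genes, with a median log2 ratio of −3.12. Their J2-IP values ran from 0 to 87 and had a median of 4 in each replicate, while their input values ran from 10 to 1610, with a median of 33. The input was at least 4 times every J2-IP value for 84 of them and at least 8 times for 54. T22C1.t1, the tRNA gene with the highest input, had J2-IP values of 4, 6 and 2 against 1610, a 443-fold depletion (log2 ratio −8.79 ± 0.80, SD, n = 3, limma adjusted p = 0.00013). The second input was higher than the first for 121 of the 123 genes, by a median factor of 2.32, and all 123 were depleted over it too. Copies of a tRNA gene are near identical, so values of single copies are uncertain.

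Small nuclear RNAs, the RNA parts of the spliceosome, followed the tRNAs at a smaller size. Of 66 snRNA genes 64 were depleted and 0 enriched, with a median log2 ratio of −1.84. F56H6.14, the snRNA gene with the highest input, had 1935, 2219 and 1697 against 6880, a 3.55-fold depletion. sls-2.8, a gene for the SL2 spliced leader RNA that is joined to the 5′ ends of operon messages, had 3, 5 and 5 against 30 (7.11-fold depletion). Replicate 2 was higher than the others for 9 snRNA genes. Y47H9A.2, one of the 2 snRNA genes without a call, had 118, 515 and 106 against 417, so that replicate 2 lay above the input and the other libraries below it. The other one, C27H5.11, had 24, 26 and 22 against 36. Without replicate 2 the median log2 ratio of the class was −1.91.

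Small nucleolar RNAs, which guide chemical modification of ribosomal RNA, were mixed. Of 127 snoRNA genes 41 were depleted and 14 enriched, with a median log2 ratio of −0.26. Y38F2AR.14 had 359, 394 and 347 against 5059, a 13.8-fold depletion (limma adjusted p = 4.3e-05). C14C10.8 had values of 1088, 1578 and 1050, each at least 7.39 times its input (8.57-fold enrichment). The coding gene ril-2, which overlaps C14C10.8, had nearly the same values (1204, 1686 and 1169 against 210), and reads of the snoRNA and its host cannot be told apart. The same holds for Y46G5A.40 (614, 806 and 550 against 93) and its host pisy-1, a phosphatidylinositol synthase gene (645, 833 and 579 against 115).

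The RNAs of a pair of ribonucleoprotein enzymes were among the most depleted single-copy noncoding genes. rpr-1, the RNA subunit of RNase P, which trims the 5′ ends of tRNA precursors, had 41, 34 and 42 against 1236, a 31.8-fold depletion (log2 ratio −4.99 ± 0.17, SD, n = 3, limma adjusted p = 3e-05). mrpr-1, the related RNA of RNase MRP, had 57, 57 and 64 against 775 (13.1-fold depletion). tts-1, a long noncoding RNA that associates with ribosomes, was on the other side, with 1364, 1156 and 1473 against 381 (3.48-fold enrichment). For all 3 genes the J2-IP values and the 2 inputs did not overlap.

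The remaining noncoding genes split by what they overlapped. Of 214 genes annotated as other noncoding RNA, 47 were enriched and 66.4% were depleted. The 141 that overlap a tRNA, snRNA or snoRNA gene were mostly depleted (120, against 7 enriched, median log2 ratio −1.98). The 73 that overlap none of these were more often enriched (40, against 22 depleted, median 0.94), W06H8.5 among them with 692, 647 and 827 against 92 (7.81-fold). Both counts include genes that share reads, so they are not counts of independent genes. Of the 40, 10 are ZK973 genes of a single locus. Among the 141, C38C6.9 had the values of the tRNA gene C38C6.t1 (1, 1 and 2 against 117). Over all kept genes, 115 with an input of 50 or more had the same 4 values as another gene. Pseudogenes, copies that have lost their coding potential, were enriched in 22 of 63 cases (34.9%) and depleted in 2 (3.17%), with a median of 0.41. ZC513.7 led them, with 366, 308 and 428 against 37 (9.84-fold).

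The 10 highest ratios among genes with an input of 50 or more, ranked by the replicate closest to input, belonged to 1 microRNA gene and 9 noncoding genes of a single locus. mir-353, a microRNA gene whose precursor is by nature a hairpin, had J2-IP values of 1997, 2113 and 1750 against 85, a 22.9-fold enrichment (log2 ratio 4.52 ± 0.14, SD, n = 3, limma adjusted p = 4.3e-05). The second input, 148, was higher than the first and still more than 10 times below the lowest J2-IP value. ZK973.20, the highest of the noncoding genes in that locus, had 5881, 4636 and 5713 against 287 (18.7-fold). 10 such ZK973 genes, all within the span of anc-1, were enriched between 12.1-fold and 18.7-fold. anc-1, which encodes a giant repeat-containing protein that tethers nuclei to the actin cytoskeleton, had 48466, 48467 and 47061 against 9875, a 4.86-fold enrichment (log2 ratio 2.28 ± 0.02, SD, n = 3, limma adjusted p = 0.0031). The ZK973 genes and anc-1 share the same stretch of genome, so their reads cannot be assigned to one or the other.

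Shared reads also bear on the coding genes at the bottom of the ranking. Of 5981 coding genes, 1295 were enriched and 598 depleted. A listed noncoding gene overlapped 104 of the 5981 (1.74%) and had an input of at least 50% of theirs. This held for 57 of the 598 depleted coding genes (9.53%) and for 18 of the 1295 enriched ones (1.39%). Among the 40 coding genes for which the input was at least 4 times every J2-IP value, it held for 19 (47.5%). T22C1.12 had J2-IP values of 4, 6 and 2 against an input of 1611, which are the values of the tRNA gene T22C1.t1 within 1 count. The same pairing was seen for dylt-2 (3, 1 and 4 against 114), a dynein light chain gene that has the values of the tRNA gene D1009.t2. rpl-7A, the most depleted ribosomal protein gene (1521, 1570 and 1508 against 4899), overlaps the noncoding gene Y24D9A.9. Depletion of these coding genes is therefore uncertain.

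frm-7 is a further case, and the one with the highest input of all coding genes. It had 8936, 9839 and 8372 against an input of 20859, but against 5835 in the second input. The direction of its ratio turned with the input used, with log2 ratios of −1.21 and 0.63. C51F7.3, the noncoding gene within it, turned with it.

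**Figure D3:**
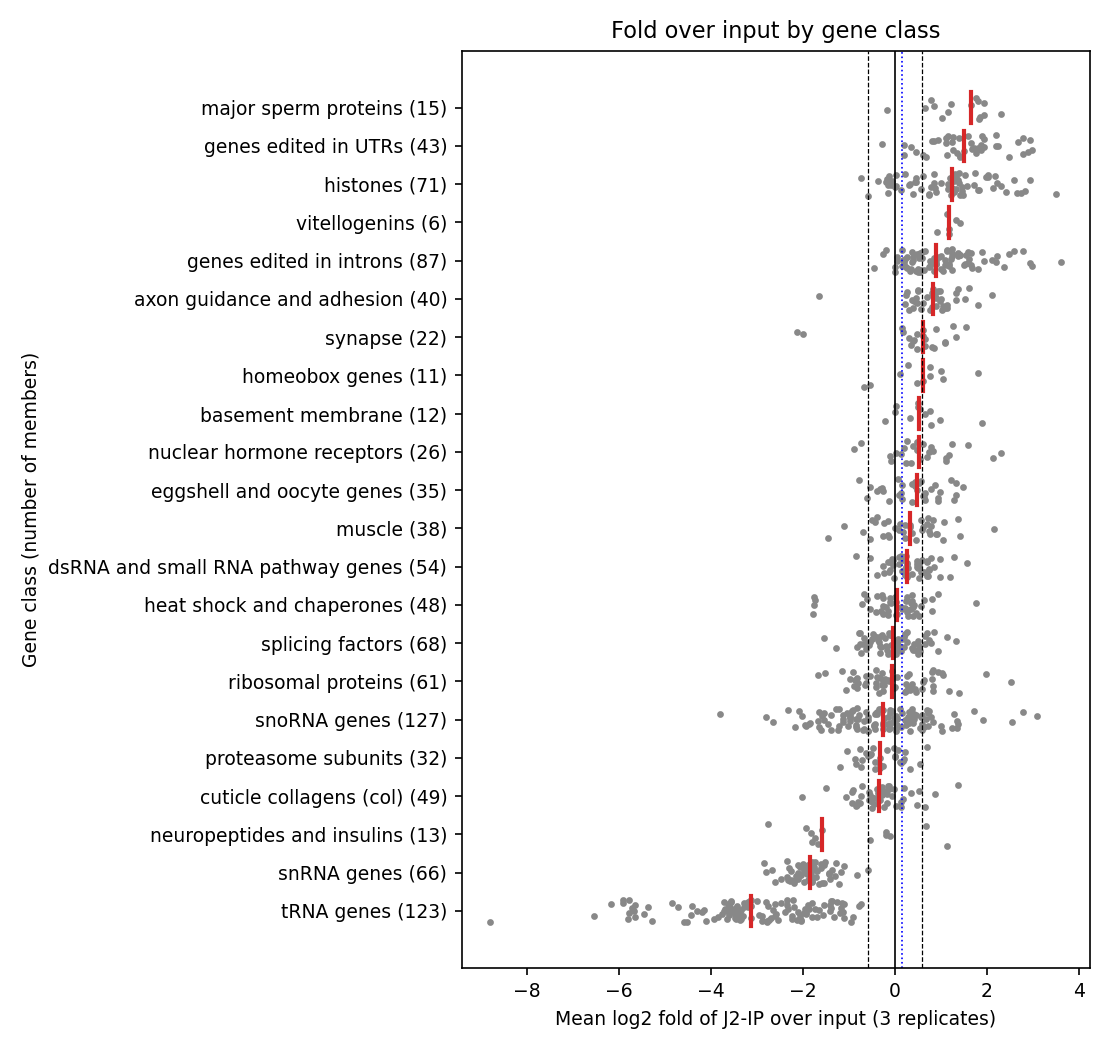
Log2 ratio of J2-IP to input for the genes of each class (x axis), with the class on the y axis. Red lines mark class medians, the dotted line the median of all genes (0.16), and the dashed lines 1.5-fold; edited genes and histones lie to the right, and tRNA and snRNA genes to the left.

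Histone messages were enriched as a family. Replication-dependent histone mRNAs are known to lack poly(A) tails and to end in a short stem-loop. Of 71 histone genes 47 were enriched (66.2%, against 21.3% of all genes) and 1 was depleted (1.41%, against 14.7%). Their median log2 ratio was 1.25, and by limma 51 lay above the typical gene and 5 below. Of the 47, 46 were enriched over the second input as well. The core histones differed among themselves. All 16 H2A genes were enriched (median 2.21), as were 13 of 16 H2B genes (1.22), 11 of 14 H3 genes (1.41) and 7 of 16 H4 genes (0.52). None of the 3 genes for H3 variants (median 0.47) and none of the 6 linker histone genes (−0.13) was enriched. The order of H4 below the other core histones depends on the input, since its median was 1.80 over the tdp-1(ok803) input.

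Single histone genes show this range. his-1, an H4 gene, had 1138, 1123 and 923 against 93, the highest ratio of the family (11.4-fold, log2 ratio 3.51 ± 0.17, SD, n = 3, limma adjusted p = 9.9e-05). his-61 (H2A) had 525, 603 and 517 against 77 (7.10-fold) and his-57 (H2A) had 1838, 1933 and 1849 against 298 (6.28-fold). The J2-IP values of these genes stood well apart from both inputs. his-56, the H4 gene with the highest input, had 3710, 4504 and 3906 against 3178, but against 793 in the second input. his-46, also H4, had 2519, 3024 and 2900 against 3145 and against 669. his-37, the single depleted member and again an H4 gene, had 7, 7 and 6 against 11. Copies within a histone type are near identical, so how reads were split among them is uncertain.

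**Figure D4:**
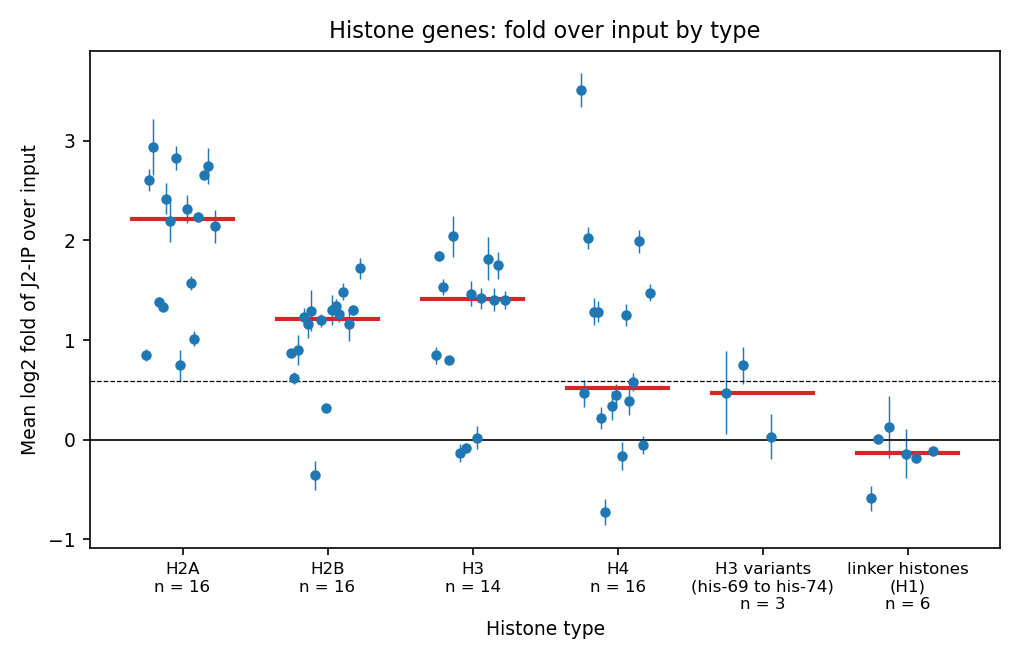
Mean log2 ratio of J2-IP to wild-type input for each histone gene (dots, with SD over 3 replicates), grouped by histone type on the x axis, with red lines at the medians. All 16 H2A genes lie above 1.5-fold, while the 6 linker histone genes lie at 0.13 or below.

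Among coding genes the share enriched increased with the length of the gene. Gene spans, introns included, were taken from RefSeq for assembly WBcel235 and served only as lengths. Of 472 coding genes spanning 0.5 to 1 kb, 6.99% were enriched and 31.6% depleted. The enriched share was 10.5% at 1 to 2 kb, 14.4% at 2 to 4 kb, 26.3% at 4 to 8 kb and 41.5% at 8 to 16 kb. Of 250 genes above 16 kb, 66.4% were enriched and 0.8% depleted. The median log2 ratio moved from −0.44 in the 0.5 to 1 kb group to 0.85 above 16 kb. The trend was much the same without edited genes and genes sharing reads, with 65.3% of 225 genes above 16 kb enriched.

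The shortest genes departed from this order, and many of them are histone genes. Of 148 genes of up to 0.5 kb, 45.9% were enriched. The 60 histone genes in that group had a share of 76.7%, and of the 88 others 22 were enriched and 35 depleted. The enriched share differed with input level as well. Among coding genes without shared reads, 18.7% of those with an input of 10 to 20 were enriched and 52.4% of the 82 with an input of 500 or more. Overlap with another coding gene did not go with enrichment, since 375 of the 1798 coding genes with such an overlap were enriched (20.9%), close to the 21.3% of all genes. Strand is not known for these overlaps, so antisense pairs could not be separated from genes on the same strand.

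**Figure D5:**
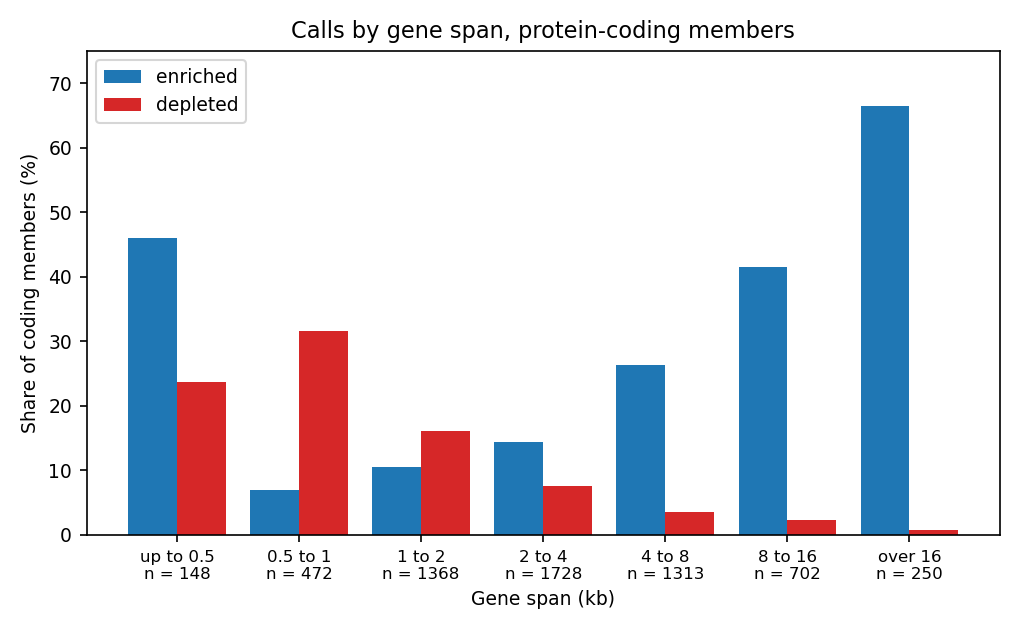
Share of coding genes called enriched and depleted (y axis, percent) by gene span (x axis, bins in kb). The enriched share climbs from 6.99% at 0.5 to 1 kb to 66.4% above 16 kb, while the depleted share drops from 31.6% to 0.8%.

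Genes of axon guidance, cell adhesion, synapse and muscle were examined beside the share of all genes (21.3% enriched) and of genes of like span. Of 40 axon guidance and adhesion genes, 25 were enriched (62.5%) and 1 was depleted, with a median log2 ratio of 0.84. Coding genes of 8 to 16 kb, the group that holds their median span, were enriched in 41.5% of cases. All 25 were enriched over the second input. unc-44, the neuronal ankyrin, had 897, 903 and 903 against 346 (2.60-fold). vab-10, a spectraplakin that links the cytoskeleton to the cell surface and has the highest input in the class, had 1658, 1659 and 1680 against 760 (2.19-fold). Both genes varied between replicates by far less than their distance from either input. M02D8.1, the depleted member, had 7, 8 and 7 against 23.

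Of 22 synapse genes 9 were enriched (40.9%) and 2 depleted (9.09%), with a median of 0.61. The enriched share was 26.3% for all coding genes of 4 to 8 kb, where their median span lies, and 41.5% for those of 8 to 16 kb. unc-64, the worm syntaxin, had 64, 58 and 74 against 27 (2.41-fold), and unc-13, a vesicle priming factor, had 79, 75 and 83 against 37 (2.13-fold). The depleted members were cat-1 (17, 14 and 16 against 62), a vesicular monoamine transporter gene that overlaps the tRNA gene E03E2.t2, and unc-31 (109, 262 and 96 against 613), which overlaps the snRNA gene ZK897.4 and was higher in replicate 2.

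Muscle and basement membrane genes were divided by gene. Of 38 muscle genes 13 were enriched (34.2%) and 2 depleted (5.26%), while 26.3% of coding genes of 4 to 8 kb were enriched. By limma 16 lay above the typical gene and 9 below. act-4, an actin gene, had 3583, 3240 and 4116 against 811 (4.47-fold), though actin copies are near identical and share reads. unc-54, the major body wall myosin heavy chain, had 4347, 4275 and 4343 against 2064 (2.09-fold), and unc-15, paramyosin, had 1221, 1160 and 1239 against 462 (2.61-fold). The depleted members were 2 troponin genes. tni-3 had 21, 21 and 20 against 44, and tnt-4 had 31, 29 and 28 against 80. Neither was depleted over the second input, which was 24 for tni-3 and 20 for tnt-4. Of 12 basement membrane genes 5 were enriched (41.7%) and 0 depleted. Coding genes of 8 to 16 kb, where their median span lies, had nearly the same enriched share (41.5%), and 2.28% were depleted. Besides lam-2 the 5 enriched genes were the laminin genes epi-1 (390, 385 and 411 against 198) and lam-1, the collagen gene emb-9 and dig-1. let-2, the partner of emb-9 in type IV collagen, had 852, 895 and 807 against 674 and did not pass (1.26-fold, limma adjusted p = 0.27).

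Regulators of transcription contributed smaller counts. Of 26 nuclear hormone receptor genes 11 were enriched (42.3%) and 1 depleted (3.85%), with a median log2 ratio of 0.53. The shares were 21.3% and 14.7% for all genes. For coding genes of 4 to 8 kb, where the receptors' median span lies, they were 26.3% and 3.50%. nhr-97 led with 359, 351 and 369 against 72 (4.99-fold). Of 11 homeobox genes 6 were enriched (54.5%) and 0 depleted. Their median span was 3958 bp, and 14.4% of coding genes of 2 to 4 kb and 26.3% of those of 4 to 8 kb were enriched. F45C12.15 led with 54, 45 and 49 against 14, and ceh-38 had 195, 185 and 197 against 93 (2.07-fold).

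Products of the reproductive system were represented by yolk, oocyte and sperm genes. All 6 vitellogenin genes, which encode yolk proteins made in the intestine, were enriched, with a median log2 ratio of 1.18, and all 6 were enriched over the second input. vit-5 had 15936, 16398 and 15674 against 5943 (2.69-fold, limma adjusted p = 0.0046). vit-6, the most abundant, had 30287, 29739 and 29389 against 15668 (1.90-fold) and did not pass by limma (adjusted p = 0.069). The 2 genes have J2-IP values well above both inputs. Several vit genes are near identical, so their separate values are uncertain.

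Of 35 eggshell and oocyte genes, 11 were enriched (31.4%, against 21.3% of all genes) and 1 depleted (2.86%, against 14.7%). Coding genes of 2 to 4 kb, where their median span lies, were enriched in 14.4% of cases and depleted in 7.52%. gld-1, a translational repressor of the germline, had 918, 845 and 1099 against 339 (2.80-fold), and oma-2, an oocyte maturation factor, had 278, 233 and 274 against 103 (2.53-fold). cpg-3, a chondroitin proteoglycan gene, was the depleted member, with 77, 72 and 74 against 128. Of 23 germ granule genes 4 were enriched (17.4%) and 0 depleted, with a median of 0.26.

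Major sperm proteins, which drive sperm crawling and signal to oocytes, were enriched in 11 of 15 genes (73.3%, against 21.3% of all genes). Their median log2 ratio was 1.65. Of coding genes of up to 0.5 kb other than histones, 25% were enriched. msp-19 had 112, 178 and 123 against 27 (4.99-fold). Replicate 2 was the highest for most of them, and for 4 genes it exceeded both others more than 2-fold. msp-65, for example, had 23, 83 and 23 against 10. Without replicate 2 the median was 1.07. Inputs were low, at 10 to 27, and the second input was lower still, with a median log2 ratio of 2.79 over it. The msp genes are near identical, and none of the 5 sperm markers was among the kept genes.

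Ribosomal protein genes were called about as often as all genes. Of 61 such genes 13 were enriched (21.3%, as for all genes) and 11 depleted (beside 14.7% of all genes), and the median log2 ratio was −0.05 (0.13 over the second input). By limma 17 lay above the typical gene and 31 below. rps-8 had 2231, 2388 and 2288 against 398 (5.78-fold), and rpl-35 had 498, 475 and 589 against 130 (3.99-fold). In contrast rps-18 had 178, 170 and 158 against 373, and rpl-11.1 had 89, 88 and 86 against 252, a 2.87-fold depletion. Genes of like size and function thus differed by more than 10-fold in their ratio, with SDs on the log2 scale of 0.05 for rps-8 and 0.03 for rpl-11.1. Of the 11 depleted genes, 6 were depleted over the second input.

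Of 32 proteasome subunit genes 6 were depleted (18.8%, against 14.7% of all genes and 16.1% of coding genes of 1 to 2 kb) and 1 was enriched (3.13%), with a median of −0.32. rpn-12, a subunit of the regulatory particle, had 18, 15 and 20 against 40, and pbs-4, a core subunit, had 29, 27 and 30 against 59. Of the 6 depleted genes, 5 were depleted over the second input. Of 68 splicing factor genes 8 were enriched (11.8%) and 7 depleted (10.3%), and heat shock and chaperone genes had 4 of each among 48 (8.33%). Each share of these latter 2 classes was below that of all genes (21.3% and 14.7%). Coding genes of 2 to 4 kb, where both median spans lie, were enriched in 14.4% of cases and depleted in 7.52%. Against those, the enriched shares were lower and the depleted shares were not.

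Cuticle collagens, short genes of the epidermis, changed with the input used. Of 49 col genes 12 were depleted (24.5%, against 14.7% of all genes), 2 were enriched and 35 were called neither way, with a median log2 ratio of −0.35. The depleted share was 16.1% for coding genes of 1 to 2 kb, where the median col span lies, and 31.6% for those of 0.5 to 1 kb. Over the tdp-1(ok803) input the col median was 0.61, and only 2 of the 12 depleted genes were depleted there too. col-106 was one of the firmest, with 123, 120 and 116 against 483 (4.04-fold depletion, limma adjusted p = 6.2e-05) and a second input of 350. col-159, the highest, had 287, 292 and 303 against 113.

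Of 13 genes listed as neuropeptides and insulins, 7 were depleted (53.8%, against 14.7% of all genes and 31.6% of coding genes of 0.5 to 1 kb). In this class 2 genes were enriched, and its median log2 ratio was −1.59. Over the tdp-1(ok803) input the median was −0.05. Several of the depleted members are not known as neuronal signals. nlp-27, nlp-28, nlp-29, nlp-31 and nlp-33 belong to the group of small peptide genes that are known to act as antimicrobial peptides of the epidermis. nlp-29 had 16, 15 and 13 against 98, a 6.71-fold depletion, and 33 in the second input. nlp-28 had 23, 20 and 21 against 71, with a second input of 21, so its depletion was not seen over that input. Of the 7 depleted genes 6 were depleted over both inputs.

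Small secreted and lipid-binding proteins of the gut were found on both sides. Of 47 antimicrobial effector and protease genes 13 were depleted (27.7%, against 14.7% of all genes) and 6 enriched (12.8%, against 21.3%), with a median log2 ratio of 0.04, or −0.36 over the second input. Coding genes of 1 to 2 kb, where their median span lies, were depleted in 16.1% of cases and enriched in 10.5%. lbp-2, a fatty acid-binding protein gene, had 14, 12 and 13 against 61 (4.70-fold depletion). far-1, a fatty acid and retinol-binding protein gene of similar size, had 238, 233 and 230 against 84 (2.78-fold enrichment), and the aspartic protease gene asp-1 had 783, 747 and 804 against 328 (2.37-fold). Of the 13 depleted genes 11 were depleted over the second input, and 4 of the 6 enriched genes were enriched over it.

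Of 54 genes whose products act on dsRNA and small RNAs, 13 were enriched (24.1%, against 21.3% of all genes) and 1 was depleted (1.85%, against 14.7%). These shares were close to those of coding genes of 4 to 8 kb, where their median span lies (26.3% enriched and 3.50% depleted). alg-1, the Argonaute of the microRNA pathway, had 87, 85 and 96 against 30 (2.97-fold), and vig-1, a component of the RNA-induced silencing complex, had 1844, 1637 and 1853 against 730 (2.43-fold). rde-4, the dsRNA-binding partner of Dicer in RNA interference, was the depleted member, with 46, 45 and 44 against 81, but not over the second input of 56. dcr-1, Dicer itself, had 200, 187 and 200 against 168 and did not pass by limma (adjusted p = 0.56). Neither did the ADAR genes. adr-1 had 75, 72 and 77 against 64 (adjusted p = 0.59), and adr-2 had 54, 41 and 48 against 42 (adjusted p = 0.98). tdp-1, the worm TDP-43 gene, had 27, 27 and 25 against 38, a log2 ratio of −0.53 ± 0.06 (SD, n = 3), and was not called. Its second input of 12 came from animals that carry a deletion in this gene and gives no check of it.

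Coding genes with no overlapping noncoding gene in the list were found at both ends too. M03F4.6 had 1780, 1491 and 2073 against 167 (10.6-fold) and ZK185.2 had 1530, 1433 and 1815 against 208 (7.62-fold). ttr-16, a transthyretin-like protein gene, had 21, 23 and 18 against 177, an 8.61-fold depletion, and C36C9.6 had 8, 5 and 6 against 85. pkd-2, the polycystin gene of male sensory neurons, had 18, 15 and 16 against 103, and hsp-16.1, a small heat shock protein gene, had 15, 15 and 16 against 52. In each of these the 3 J2-IP values lay on one side of the wild-type input.

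The 173 genes with an input of exactly 10 had a median log2 ratio of 0.05, and the 196 genes with an input of 9, which were left out, had a median of 0. At an input of 8 the median was 0.27. Of the 1961 joined genes under the minimum, 168 had an input of 0.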

How the data were processed

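RNA from young adult N2-CGC B worms (15°C) was studied as 3 J2-IP libraries from 3 independent lysates and 1 input library. Pulldown used 100 µg of protein and J2 antibody for 2 h, without crosslinking. Libraries were strand-specific (ScriptSeq v2). The authors did not remove rRNA from the J2-IP RNA, while RNA for their total RNA libraries passed a column that removes it. Whether the input RNA passed that column is not stated separately, and an effect on the ratios was not tested. The authors trimmed and filtered reads, removed rRNA reads, aligned to WS220 and counted per gene; the submitters' processing notes name TopHat2 2.0.10, Bowtie2 2.1.0, HTSeq 0.5.4p3 and DESeq 1.16. The authors deposited the J2-IP and input values as normalised counts rounded to whole numbers, treated here as a score, since the normalisation between the 2 tables is not given in the sources used here. Depth is therefore unknown, and the wild-type J2-IP values were taken as not divided by input. The authors deposited the editing list with other columns (positions, region types and numbers of potentially edited positions), and its columns comparing genotypes (change, fold and p-value) were not used. ChIP peaks and poly(A) values were not used.

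Tables were joined by gene name (5109) or by symbol through RefSeq (3491); 177 genes had no partner and 6 symbols had moved to another gene. Genes with a wild-type input of 10 or more were kept. Of them 6579 matched a RefSeq entry (WBcel235), which gave names, biotypes and spans. Ratios were averaged on the log2 scale over replicates without a pseudocount; 1 kept gene had a J2-IP value of 0. limma 3.58.1 (R 4.3.3) was run on log2(value + 1) over all kept genes after rescaling each library by its median ratio. It used a trend of variance on level, and p-values were adjusted by Benjamini-Hochberg. The code was tested on simulated data in which the input varied like the J2-IP libraries. That test therefore cannot check this assumption about the real input. Single-input p-values rest on the spread of the J2-IP libraries. At an unadjusted p under 0.05, 2196 genes lay above and 2191 below. Tables and figures used Python 3.11.15, numpy 2.4.6, pandas 2.3.3, scipy 1.17.1 and matplotlib 3.10.9.

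The classes and the rule for named genes were chosen with earlier results of these data known. The rule took the 10 highest and 10 lowest ratios at an input of 50 or more, the highest, the lowest and the most abundant member of each class of 5 or more, and genes named by the study. Other genes named were chosen after their values were seen. Genes counted as sharing reads had an overlapping listed noncoding gene of at least 50% of their input. Alternatives were other minimum inputs, folds, pseudocounts and scalings, the tdp-1(ok803) input, and leaving out each replicate.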

Additional observations from a re-analysis of the deposited data

How the results depend on the processing

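No paired analysis was possible because the single input library carries no replicate number. Of 1413 enriched genes, 630 were called among genes with an input of 50 or more, 571 at 2-fold, and 2393 were called over the tdp-1(ok803) input. Of 974 depleted genes, 389 were called at an input of 50 or more and 576 at 2-fold. limma's 2062 genes above became 883 and its 2027 below 901 when only genes with an input of 50 or more were tested, and without rescaling 2292 were above and 1331 below. Leaving out each J2-IP replicate gave 1442 to 1753 enriched and 1031 to 1037 depleted genes, and 1780 to 2286 above and 1654 to 2255 below by limma, the largest counts without replicate 2 except for depleted genes. A fold call on fewer libraries needs fewer values past the threshold. The tdp-1(ok803) input moved the median log2 ratio of all genes by 0.27, and with it the enriched share of the calls was 74.7%. With the mean of both inputs that share was 67.6%. Keeping genes by the mean of J2-IP and input gave 1632 enriched and 847 depleted genes (65.8%). Of 489 class medians under the alternatives (42 classes), 467 kept their sign and 22, in 13 classes, did not, 8 of them over the tdp-1(ok803) input. Ligand-gated ion channels turned from 0.60 to −0.81 over the tdp-1(ok803) input and −0.54 over the mean of both inputs, and over the tdp-1(ok803) input cuticle collagens turned from −0.35 to 0.61 and other sperm genes from −0.41 to 0.74. Of 1560 values of 137 named genes, 1538 kept their sign and 22, of 15 genes, did not, 12 of them over the tdp-1(ok803) input. Among depleted genes, frm-7 turned there to 0.63, C51F7.3 to 0.61, dpy-5 to 0.31 and tnt-4 to 0.55. The cause of these turns was not tested. Joining the tables by row order (6807 genes, 1444 enriched and 987 depleted) and leaving out coding genes that share reads (1395 and 917) were chosen after seeing the data. Unknown depth limits all genes of low input.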

Other observations

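Several genes under the minimum input had high J2-IP values and so no ratio. Among 1961 such genes, 8 had every J2-IP value at 50 or more. F08G2.13, a noncoding gene, had 198, 258 and 190 against an input of 1. mir-2214, a microRNA gene, had 64, 130 and 71 against an input listed at 0, and B0361.11, the coding gene at the same place, had 65, 131 and 71 against 1. tts-2, a noncoding gene, had 68, 63 and 78 against 4, and sre-9, a chemoreceptor gene, had 69, 51 and 88 against 1. F59D8.3, snt-2 and Y71G12B.25 had inputs of 9. These genes were chosen for their values, and none was tested.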
